A study of Mus musculus with 8 samples.

Results

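Chromatin that was called open at one time and not at the other was described in control ILC2s, which carried GFP and no E47-ER, after 4 or 16 hours of 4-hydroxytamoxifen. Each time had 1 deposited list of open regions, made from 2 samples. Overlapping lines of a list were merged, and a region counted as called at one time when it shared no base with any region of the other GFP list. Of 52846 regions at 16 h, 13081 were called at 16 h only (24.8% of the list), and of 42665 regions at 4 h, 3421 were called at 4 h only (8.02%). Together these were 16502 regions, against 54515 in the union of both GFP lists and 60835 in the union of all 4 lists of the study.

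The study measured open chromatin by ATAC-seq in thymic ILC2s, the group 2 innate lymphoid cells, taken from C57BL/6 mice that carry the plck-Id1 transgene. A MIGR1 retrovirus brought either GFP with no other insert, or GFP together with E47-ER, in which E47 is joined to an estrogen receptor and so becomes active with tamoxifen; cells were then sorted for GFP and grown with cytokines. There were 8 samples in 4 groups of 2: GFP at 4 h, GFP at 16 h, E47 at 4 h and E47 at 16 h. All 4 groups carried the plck-Id1 transgene, a retrovirus and tamoxifen, so the GFP groups differ from each other in the hours after tamoxifen, and samples with no tamoxifen were not analysed here. Whether the paired samples within each group are separate cultures or separate animals is not in the labels, and the free-text descriptions name the vector by replicate number, against the sample titles, which were used. The labels also give the library source as transcriptomic and the molecule as total RNA, while the protocol describes a transposase reaction, which was followed here.

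ILC2s are lymphocytes without antigen receptors that answer IL-33 and IL-25 with IL-5, IL-13 and amphiregulin, and their identity rests on the transcription factors GATA3 and RORα. E proteins such as E47 bind the E-box motif and drive T cell development, while Id1 pairs with them and keeps them off DNA. The plck promoter is a promoter of Lck that is active in thymocytes. In ATAC-seq a transposase cuts accessible DNA, so that promoters and enhancers in use appear as peaks. Reads from the transgene at Id1 and at the Lck promoter cannot be told apart from reads of those genes.

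The most direct view of a gene whose state differed between the lists was a transcription start that lay in a region called at one time. Of 21263 RefSeq promoters (GRCm38.p6, the mm10 assembly; 250 bases before to 50 after a start) of 17492 protein-coding genes, 10257 had their start in a region of both times, 308 in a region called at 16 h only and 104 in a region called at 4 h only. The 4 promoters under the strongest 16 h-only regions and the 4 under the strongest 4 h-only regions are printed, 5′ to 3′ on the strand of the gene, to show what these starts look like. Capitals mark matches, on either strand, to 8 motifs that may overlap one another. The AP-1 motif was searched as TGANTCA, and the E-box, the site of E proteins, as CANNTG. The GATA motif was read as AGATAA. The RUNX motif was read as TGTGGT. The ETS motif was taken to be CCGGAAG and the cyclic AMP response element to be TGACGTCA. The NF-kB motif was searched for with the letters GGNNTTTCC. The half-site of nuclear receptors was searched for with the letters AGGTCA.
Cstdc3, 16 h only: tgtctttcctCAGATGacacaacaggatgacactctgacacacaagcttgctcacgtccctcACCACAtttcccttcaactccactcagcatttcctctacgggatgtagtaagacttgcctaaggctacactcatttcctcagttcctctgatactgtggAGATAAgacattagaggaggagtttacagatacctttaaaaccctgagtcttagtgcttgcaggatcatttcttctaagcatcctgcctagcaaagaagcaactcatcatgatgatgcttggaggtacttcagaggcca
Nlrp1b, 16 h only: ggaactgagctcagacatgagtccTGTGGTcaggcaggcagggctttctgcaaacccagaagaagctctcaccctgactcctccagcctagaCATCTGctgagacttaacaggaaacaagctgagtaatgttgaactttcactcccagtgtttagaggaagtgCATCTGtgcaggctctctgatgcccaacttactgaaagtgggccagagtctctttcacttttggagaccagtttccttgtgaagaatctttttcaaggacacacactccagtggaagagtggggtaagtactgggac
Cyp4f16, 16 h only: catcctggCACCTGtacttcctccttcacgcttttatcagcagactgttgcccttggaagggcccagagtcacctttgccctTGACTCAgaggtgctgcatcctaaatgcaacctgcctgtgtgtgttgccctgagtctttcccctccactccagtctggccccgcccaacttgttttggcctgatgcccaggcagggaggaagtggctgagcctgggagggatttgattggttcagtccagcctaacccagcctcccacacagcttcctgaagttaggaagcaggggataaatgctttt
Tbx18, 16 h only: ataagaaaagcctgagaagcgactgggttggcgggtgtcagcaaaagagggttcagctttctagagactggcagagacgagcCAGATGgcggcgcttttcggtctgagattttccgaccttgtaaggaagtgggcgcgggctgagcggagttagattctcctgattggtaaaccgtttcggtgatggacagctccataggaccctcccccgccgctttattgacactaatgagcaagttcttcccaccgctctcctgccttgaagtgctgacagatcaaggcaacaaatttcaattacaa
Znrd2, 4 h only: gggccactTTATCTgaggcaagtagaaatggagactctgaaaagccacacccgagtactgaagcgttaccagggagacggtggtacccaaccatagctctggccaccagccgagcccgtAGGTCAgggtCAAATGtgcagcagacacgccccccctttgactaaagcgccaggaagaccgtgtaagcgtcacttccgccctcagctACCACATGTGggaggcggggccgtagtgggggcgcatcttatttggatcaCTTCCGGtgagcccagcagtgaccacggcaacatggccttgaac
Rbpms2, 4 h only: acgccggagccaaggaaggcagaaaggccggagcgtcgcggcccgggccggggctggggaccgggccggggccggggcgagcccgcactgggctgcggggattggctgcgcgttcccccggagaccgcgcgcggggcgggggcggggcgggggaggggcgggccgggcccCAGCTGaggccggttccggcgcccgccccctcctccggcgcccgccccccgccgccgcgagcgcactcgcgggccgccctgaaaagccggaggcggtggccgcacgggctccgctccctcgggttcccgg
Slc17a7, 4 h only: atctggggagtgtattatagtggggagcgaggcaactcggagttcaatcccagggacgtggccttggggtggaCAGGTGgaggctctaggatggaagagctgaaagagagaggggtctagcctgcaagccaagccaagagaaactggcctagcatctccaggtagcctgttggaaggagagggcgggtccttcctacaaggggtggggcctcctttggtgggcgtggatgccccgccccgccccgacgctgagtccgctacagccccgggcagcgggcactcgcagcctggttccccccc
Oas1a, 4 h only: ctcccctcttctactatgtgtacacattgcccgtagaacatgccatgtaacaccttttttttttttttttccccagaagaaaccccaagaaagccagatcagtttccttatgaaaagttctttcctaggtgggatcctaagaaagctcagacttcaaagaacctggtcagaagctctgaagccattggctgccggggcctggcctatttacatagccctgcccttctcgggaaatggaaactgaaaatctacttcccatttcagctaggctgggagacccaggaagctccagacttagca

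Strength is given as a percentile: regions of a list were ranked by −log10 p, with 100 the strongest, and fold enrichment is the authors' ratio over local background. The start of Cstdc3 (chromosome 16, 36307730 to 36308086), in the clustered stefin family of protease inhibitors, lay in a region at percentile 61.2 of the GFP 16 h list with a fold enrichment of 15.2. It was 54621 bp from the nearest GFP 4 h region, and in the E47 lists it was called at 16 h (percentile 37.2) and not at 4 h. The region at Nlrp1b (chromosome 11, 71230710 to 71231162), an inflammasome sensor, was at percentile 60.4 at 16 h. It was called in both E47 lists, at 72.8 at 4 h and 62.5 at 16 h, so E47 cells held it at the time when GFP cells did not. The regions at the cytochrome P450 gene Cyp4f16 and the T-box gene Tbx18 were at percentiles 57.1 and 56.5 and were likewise in both E47 lists. The Cyp4f16 region was 7274 bp from the nearest GFP 4 h region. The Tbx18 region was only 390 bp from one, so a region was called beside it at 4 h too. Among 4 h-only starts, that of Znrd2 was at percentile 60.4 of the 4 h list, that of Rbpms2, an RNA-binding protein gene, at 56.1, that of the vesicular glutamate transporter Slc17a7 at 48.2, and that of Oas1a, an interferon-induced sensor of double-stranded RNA, at 46.0. Oas1a was 69798 bp from any GFP 16 h region, and was called in E47 at 4 h (46.8) and at 16 h (6.13). Of these 4, only Slc17a7 was called in E47 at 4 h and not in E47 at 16 h. Cstdc3, Nlrp1b, Cyp4f16 and Oas1a belong to families of similar genes, where reads can be shared between copies, and the read filter for such copies is not given in the sources used here.

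Starts called at one time were poorer in CpG and in the ETS motif than starts called at both. The median number of CpG per 300 bases was 15 for 16 h-only starts and 16 for 4 h-only starts, against 23 for starts of both times, 4 for starts with no region and 13 for all promoters. The ETS motif was in 3.90% of the 308 promoters at 16 h only (95% exact Clopper-Pearson interval 2.03 to 6.71) and in 1.92% of the 104 at 4 h only (0.234 to 6.77), against 21.1% at both times, 2.57% with no region and 11.6% of all. The E-box, which matches often by its short letters, was in 66.9% (61.3 to 72.1) and 70.2% (60.4 to 78.8), against 60.8% at both times and 69.0% of all promoters. The AP-1 motif was in 7.79% (5.06 to 11.4) of 16 h-only and 4.81% (1.58 to 10.9) of 4 h-only promoters against 4.19% (3.81 to 4.60) at both times, 9.77% with no region and 6.99% of all promoters. The 16 h-only interval lay above that of both times, and the 4 h-only interval held it. The same was seen for the GATA motif. It was in 9.09% (6.13 to 12.9) and 6.73% (2.75 to 13.4), against 5.14% (4.72 to 5.58) at both times. It was in 14.2% of promoters with no region and in 9.65% of all. For the RUNX, cyclic AMP, NF-kB and nuclear receptor motifs, the intervals of either time held the share of both times. These matches are letters in a fixed window and show no binding. The promoters were not matched for the strength of their regions, and regions called at one time were the weaker ones of their list.

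Over all regions, the 16 h list had 3.82 times as many regions of its own as the 4 h list, and it was the longer list by 10181 regions. The exact interval of the 16 h-only share was 24.4 to 25.1% and that of the 4 h-only share 7.76 to 8.28%. The intervals given here cover counting error alone, since 1 list per group leaves no spread between samples and no test between times. When as many of the weakest 16 h regions were left out, so that both lists held 42665, the counts became 5506 (12.9%; 12.6 to 13.2) at 16 h and 5640 (13.2%; 12.9 to 13.5) at 4 h. Of the 13081 regions called at 16 h only, 7575 lay among those left out, and 2219 regions became 4 h-only because their 16 h partner was left out. At equal length the time with the larger count differed between the measures of strength: by −log10 p the 4 h list had 1.02 times the count of the 16 h list, and by fold enrichment the counts were 7509 at 16 h and 7282 at 4 h.

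Regions called at one time were the weak ones of their list. The median percentile was 16.1 for 16 h-only regions (quartiles 7.41 and 27.7) against 62.3 for 16 h regions of both times, and 9.78 for 4 h-only regions (4.10 and 18.3) against 54.0. Of the 16 h-only regions 359 (2.74%) and of the 4 h-only regions 16 (0.468%) lay above the median of their list, and none lay above percentile 69.9 at 16 h or 69.6 at 4 h. Median fold enrichment was 6.12 against 10.7 at 16 h and 5.60 against 9.37 at 4 h. They were narrower too, with a median of 230 against 452 bp at 16 h and 208 against 432 bp at 4 h, and 54.7% and 64.1% of them had 1 summit, against 26.0% and 28.6%. In the weakest decile of the 16 h list 81.4% were called at 16 h only, in the fifth decile 15.3%, and in each of the strongest 3 deciles 0 of 5284 or 5285, and a count of 0 allows a share of up to 0.0568% when taken as at most 3 regions (exact upper limit 0.0698%). In the 4 h list the weakest decile had 40.5%, the fifth 1.52% and the strongest 3 deciles 0, which allows up to 0.0703% on the same reckoning (exact upper limit 0.0864%). At equal length the 4 h list had the higher share in its weakest decile, 62.6% against 51.1%, and the 16 h list the higher share in the fifth decile, 5.20% against 2.13%.

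**Figure D1:**
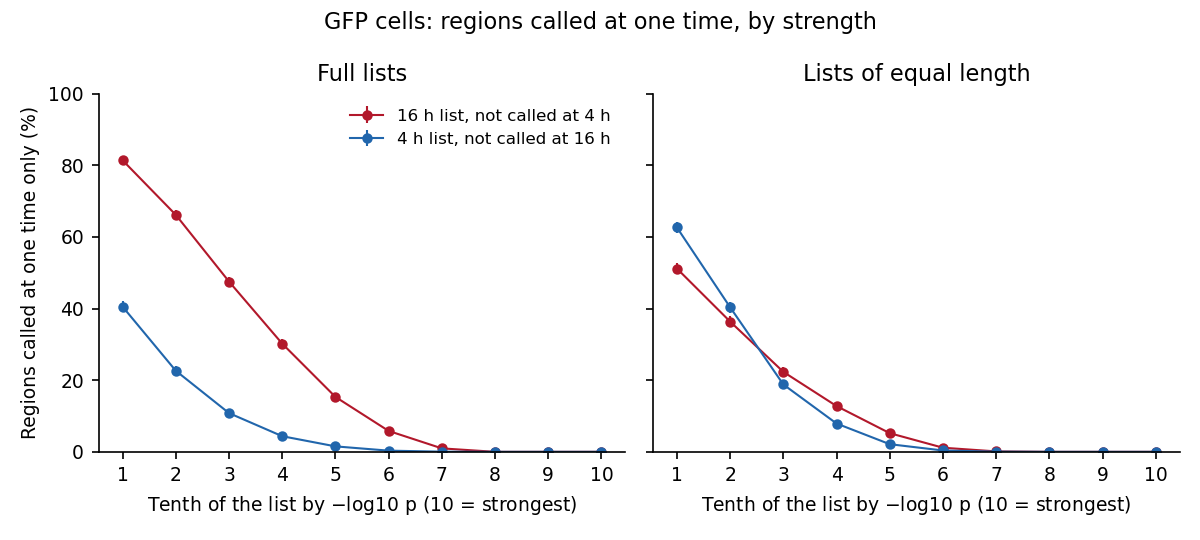
Share of regions (percent, y axis) called at one time in each decile of a list by −log10 p (x axis, 10 is the strongest), for the GFP 16 h list (red) and 4 h list (blue), with full lists on the left and lists of equal length on the right; bars are 95% exact binomial intervals. The share falls from 81.4% and 40.5% in the weakest decile to 0 in the strongest 3 deciles, and on the right the 4 h list has the higher share in the weakest decile (62.6% against 51.1%) and the 16 h list in the fifth (5.20% against 2.13%).

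Regions called at both times kept their order. At equal length 37159 regions of the 16 h list were also in the 4 h list, and 3705 of the 4267 in the top decile at 16 h (86.8%) were in the top decile at 4 h. Spearman's rho of the ranks was 0.900 across these regions, which share their libraries and are not independent, and the median absolute difference was 4.87 percentiles.

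Some of the regions called at one time lay beside a region of the other time. Of the 16 h-only regions 11.8% lay within 100 bp of a 4 h region and 29.7% within 1 kb, and of the 4 h-only regions 15.7% and 34.8% lay so near to a 16 h region. Over 1 kb from any region of the other time were 9196 16 h-only and 2230 4 h-only regions, with median percentiles of 16.1 and 10.3. At the limit of the rule, a 16 h region at Nynrin (chromosome 14, 55854366 to 55854958) overlapped a 4 h region by 2 bp and counted as shared, at percentile 3.48. A 16 h region at Etnk1 (chromosome 6, 143174260 to 143174590) missed one by 2 bp and counted as 16 h-only, at percentile 16.0, and a 4 h region at Dpy19l3 (chromosome 7, 35729213 to 35729363) touched a 16 h region without overlap, at 1.38.

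Several of the strongest regions called at 16 h only lay beside a 4 h region. The top 4 were at Abtb2 (percentile 69.9), Gbp6, a guanylate-binding protein of the interferon response (69.9), Mapkapk3, a kinase downstream of p38 (69.8), and Ddit3, the stress-induced factor CHOP (68.6). Their gaps to the nearest 4 h region were 64, 85, 225 and 82 bp. A region inside Snap91 (chromosome 9, 86770032 to 86770392), a clathrin adaptor gene best known from neurons, was 7812 bp from any 4 h region. It had percentile 68.4 and a fold enrichment of 15.6 at 16 h, while in E47 at 4 h it was at percentile 11.3 and in E47 at 16 h it was not called. Near Gpr15 (chromosome 16, 58722336 to 58722615), a homing receptor of lymphocytes for the gut, a region at percentile 66.9 was in E47 at 4 h (51.6) and not in E47 at 16 h. Inside Pex7 (chromosome 10, 19884109 to 19884793), a peroxisomal import receptor, a region at 66.5 with fold 14.7 was in no other list of the study.

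Farther than 1 kb from the 4 h list were also regions near Met, the receptor of hepatocyte growth factor (percentile 66.4, fold 16.6), inside Esyt2, a tether between membranes (65.1), inside Vps13b, a lipid transfer protein (64.8), and near Specc1 (64.0). A region near Gzmb (chromosome 14, 56284378 to 56284901), the cytotoxic protease granzyme B, was 22145 bp from the gene and 7900 bp from a 4 h region. It was at percentile 64.3 in GFP at 16 h, 55.9 in E47 at 4 h and 61.3 in E47 at 16 h, so GFP at 4 h was the 1 list of 4 without it.

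The strongest 4 h-only region, inside the meiotic mismatch repair gene Msh4 (chromosome 3, 153863919 to 153864112), had percentile 69.6 and fold 15.6 and lay 423 bp from a 16 h region. Both E47 lists held it, at 77.4 and 73.7. The next was the start of Znrd2, at a gap of 1862 bp, then Rbpms2 at 5866 bp and a region within 1 kb of an end of Neurl3 (percentile 55.0), a ubiquitin ligase gene, at 1591 bp. A region inside Ift81 (chromosome 5, 122547064 to 122547486), a cilium transport gene, was 44312 bp away and had percentile 54.0. A region inside Lck (chromosome 4, 129556493 to 129556715), the kinase of T cell receptor signalling, had percentile 50.2 at 4 h, 59.5 in E47 at 4 h and 16.8 in E47 at 16 h. A second Lck region, at 129558320 to 129558954, was called at 16 h only (percentile 34.7) and was in both E47 lists (56.9 and 64.0). Lck had 2 regions in each GFP list, and 1 of them in each was called at that time only. All cells carried plck-Id1, and whether transgene reads took part in these Lck calls was not tested. A region within 1 kb of an end of Nrp1, neuropilin 1 (49.2), was in both E47 lists at 39.1 and 38.4.

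**Figure D2:**
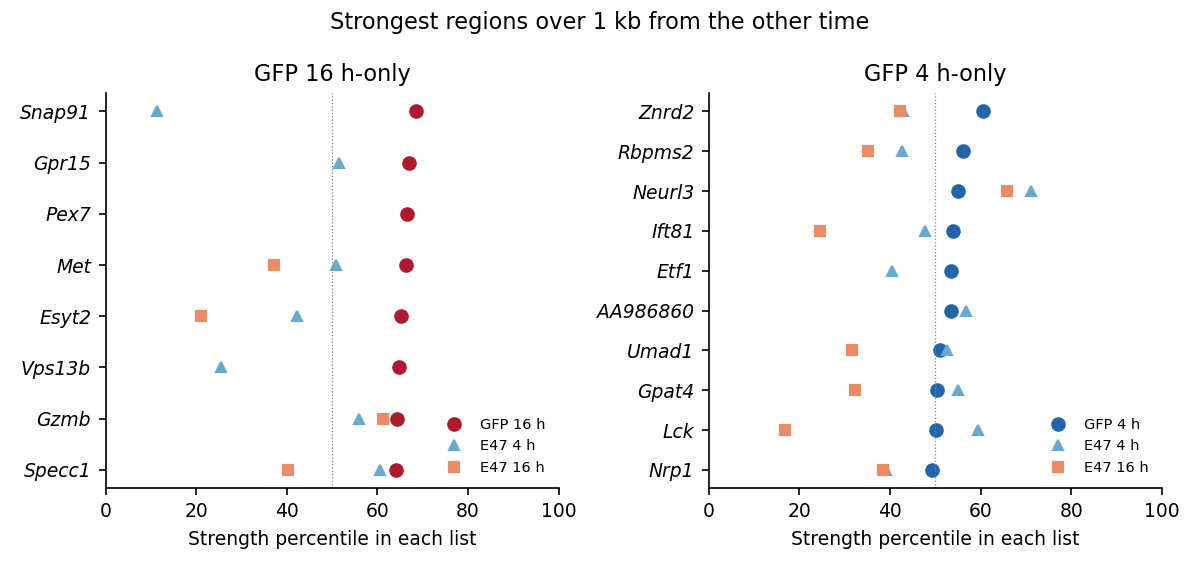
Strength percentile (x axis) of regions among the strongest over 1 kb from any region of the other time, in the GFP list that held them (circles), E47 at 4 h (triangles) and E47 at 16 h (squares); a missing symbol means not called, and not every region is drawn. GFP 16 h-only regions lie at 64.0 to 68.4 and 4 h-only regions at 49.2 to 60.4, and both kinds were called in E47 at 4 h more often than in E47 at 16 h.

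The E47 lists had no part in choosing the regions, and were used to ask whether regions called at one time in GFP cells were called at the same time in E47 cells. GFP 16 h-only regions were not found more often in E47 at 16 h than GFP 4 h-only regions were. Of the GFP 16 h-only regions, 45.1% were called in E47 at 4 h and 28.0% in E47 at 16 h, and of the GFP 4 h-only regions 53.5% and 35.5%. Only 730 of the 16 h-only regions (5.58%) were in E47 at 16 h alone, against 2964 (22.7%) in E47 at 4 h alone, 2932 (22.4%) in both and 6455 (49.3%) in neither. Of the 4 h-only regions 844 (24.7%) were in E47 at 4 h alone, 230 (6.72%) in E47 at 16 h alone, 985 (28.8%) in both and 1362 (39.8%) in neither. The E47 list was the longer at 4 h, with 49811 regions against 40649 at 16 h, and for GFP the order of lengths was the opposite.

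With the 4 lists set to 40649 regions each, the shares of GFP 16 h-only and 4 h-only regions in the E47 lists lay close together. In E47 at 4 h were 46.0% (44.6 to 47.4) and 45.04% (43.7 to 46.4), and in E47 at 16 h 41.8% (40.4 to 43.2) and 42.5% (41.1 to 43.9), so the lower shares of 16 h-only regions in the full lists were not there at equal length. Of GFP 16 h-only regions found in exactly 1 E47 list, 486 of 1173 were in the 16 h one (41.4%; 38.6 to 44.3). Of GFP 4 h-only regions found in exactly 1, the number was 607 of 1340 (45.3%; 42.6 to 48.0). In the full lists these shares were 19.8% (18.5 to 21.1) and 21.4% (19.0 to 24.0). The share in E47 at 16 h was thus not higher for 16 h-only regions under either setting, and no test was possible with 1 list per group. In the full lists, 16 h regions of both GFP times below the median strength were in E47 at 4 h in 76.7% and in E47 at 16 h in 59.0%. For all 16 h-only regions of the full lists the shares were 45.1% and 28.0%. These groups were not matched for strength.

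**Figure D3:**
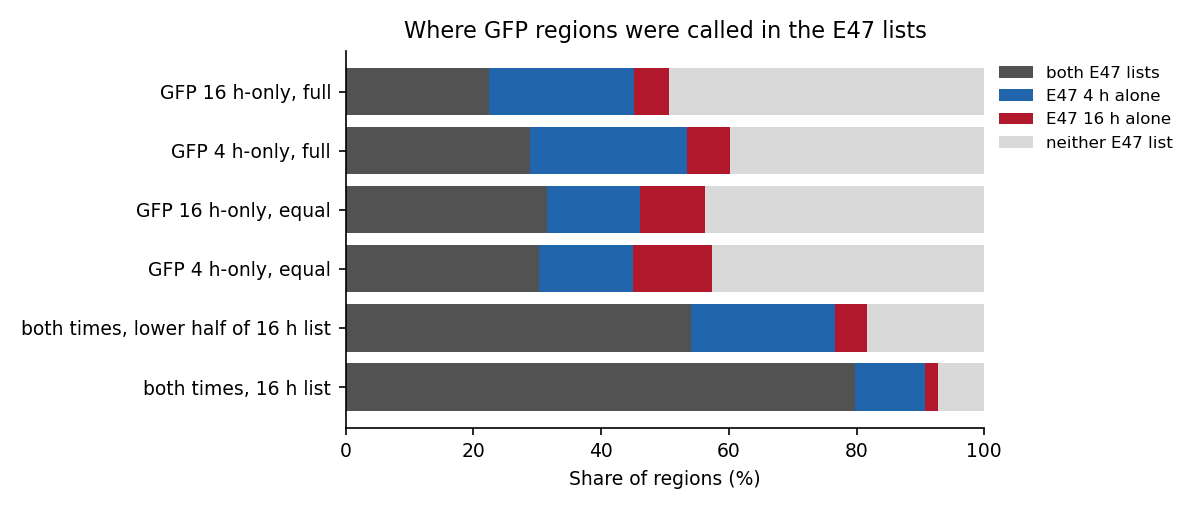
Share of GFP regions (percent, x axis) called in both E47 lists (dark grey), E47 at 4 h alone (blue), E47 at 16 h alone (red) or neither (light grey), for regions called at one time in full lists and in 4 lists of equal length, and for regions of both times in the full 16 h list. At equal length the red share is 10.2% for 16 h-only and 12.3% for 4 h-only regions.

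GFP regions with the same time in both vectors numbered 730 at 16 h and 844 at 4 h. Each was called in GFP at 1 time only, overlapped an E47 region of that time and overlapped none of the other E47 list. None of the 730 lay above the median of both its lists, and 3 of the 844 did. Among the 10 strongest of the 730 by mean percentile, those at Tmem198b, Stt3b, Sf3b2, Maf, Pcyt1b, 9430078G10Rik, Myl3, Dlg2 and Natd1 lay 32 to 76 bp from a GFP 4 h region. At Tmem198b the region was at percentile 27.6 in GFP with fold 3.42, and the E47 16 h region that overlapped it was at 98.1 with fold 18.6. Whether such E47 regions overlapped an E47 region of the other time outside the GFP region was not tested. Over 1 kb from the other GFP list were 474 at 16 h, led by a region inside Efcab14 (chromosome 4, 115743018 to 115743493; 56.1 in GFP, 43.5 in E47) and the start of Cstdc3, with others inside Sec16b and within 1 kb of an end of Entpd3, an ectonucleotidase gene (48.5 and 32.0). Over 1 kb apart at 4 h were 555, led by AA986860 (chromosome 1, 130743707 to 130744169; 53.4 and 56.7), Rasl11a (48.0 in GFP), Etf1 (53.5 and 40.3), Mgat4a (36.8 and 55.1) and the start of Slc17a7 (48.2 and 40.7), and including the homeobox gene Prox1 (40.3 and 43.5) at 102937 bp from any GFP 16 h region.

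By position, regions called once lay less often at gene ends than regions called at both times. Summits within 1 kb of a protein-coding gene's start or finish made up 13.8% of 16 h-only regions (13.2 to 14.4) against 32.5% of both-times regions of that list, and 15.5% of 4 h-only regions (14.3 to 16.7) against 31.9%. Inside genes lay 52.0% and 48.2%, and between genes 34.2% and 36.3%. The gap was smaller among weak regions: below the median strength of a list the shares at gene ends were 13.9% against 17.6% at 16 h and 15.4% against 15.8% at 4 h. Over 1 kb from the other time, 7.22% of 16 h-only and 8.65% of 4 h-only regions were at gene ends. That limit itself leaves out regions beside gene ends that were called at the other time, so these shares are no further measure of position.

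**Figure D4:**
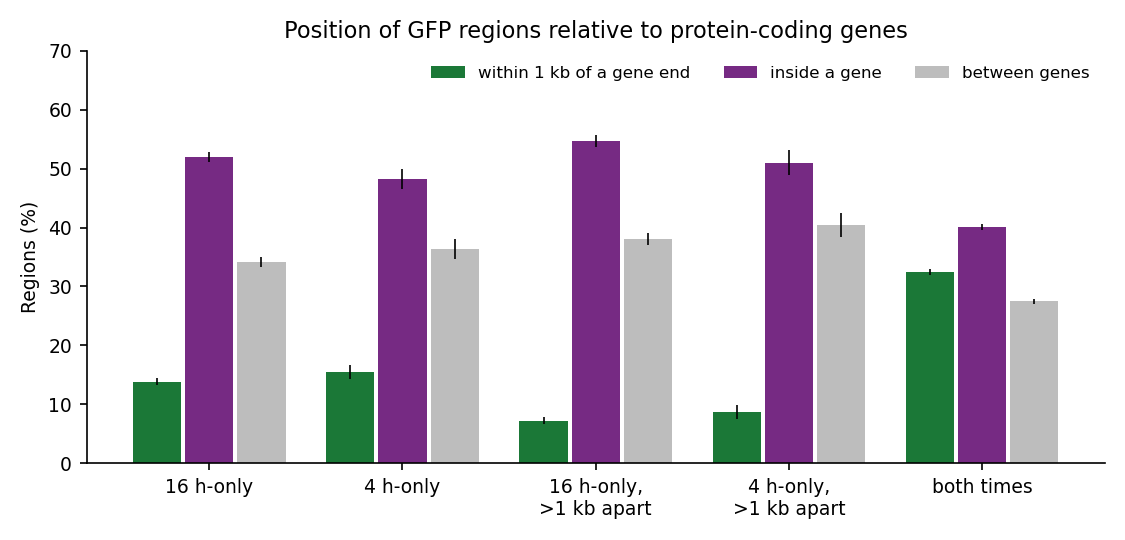
Share of regions (percent, y axis) with a summit within 1 kb of a gene end (green), inside a gene (purple) or between genes (grey), for regions called at one time, those over 1 kb from the other time, and 16 h regions called at both times; bars are 95% exact binomial intervals. Gene ends hold 13.8% and 15.5% of regions called at one time and 32.5% of regions called at both.

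Each region was named for the nearest protein-coding gene within 100 kb, which does not show that it acts on that gene. Of 14705 genes with a region in either list, 6926 (47.1%) had a 16 h-only and 2623 (17.8%) a 4 h-only region, and 1591 had both. All regions of 841 genes were 16 h-only and those of 224 were 4 h-only. Long genes with many regions led the counts, and the genes named here were picked for these counts. They are to be read beside the shares over all regions named for a gene. Those were 24.5% of 16 h regions at 16 h only and 7.86% of 4 h regions at 4 h only. Elmo1, an activator of Rac, had 16 16 h-only regions of 44 at 16 h. Zmiz1, a partner of Notch1, had 16 of 39 and no 4 h-only region of 24. Nfkb1, the p50 subunit of NF-kB, had 14 of 34, and 1 of 22 at 4 h. The repressor gene Etv6 had 13 of 32 and Creb5, a CRE-binding factor, 13 of 26, and neither had a 4 h-only region. Both phosphodiesterase genes Pde4b (13 of 28) and Pde4d (13 of 42) were among the 10 genes with most. The strongest of these 16 h-only regions lay just above the median strength for Elmo1 (percentile 54.6) and Pde4b (50.3). For the others named it lay below the median. It was at 47.3 for Nfkb1 (chromosome 3, 135586527 to 135586892), 45.5 for Etv6, 41.1 for Creb5, 41.0 for Pde4d and 39.2 for Zmiz1. At 4 h the most were 6 of 25 at Wwox, then 5 of 20 at Spata13, and 4 of 22 at Runx2, a RUNX family factor known from bone. These genes had more at 16 h only, with 10 of 29 at Wwox, 6 of 20 at Spata13 and 9 of 27 at Runx2.

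Genes of ILC2 identity had open regions at both times. Of their regions called at one time 0 lay above the median strength, where 2.74% of all 16 h-only and 0.468% of all 4 h-only regions lay. With so few regions a count of 0 is near those shares, and the NF-kB, circadian clock, interferon and B cell lists also had 0. Of 30 ILC2 genes 29 had a region in a list, the exception being Ptgdr2, the prostaglandin D2 receptor CRTH2. Of their 245 regions at 16 h 46 were 16 h-only (18.8%; 14.1 to 24.2), against 24.5% of all regions named for a gene, and of 214 at 4 h 14 were 4 h-only (6.54%; 3.62 to 10.7) against 7.86%. At equal length the shares were 5.39% (2.72 to 9.44) against 12.7% and 8.88% (5.43 to 13.5) against 13.0%. The median percentile over the genes' 16 h regions was 48.6, against 50.4 for all regions named for a gene.

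Among the receptors, the IL-33 receptor gene Il1rl1 had 1 16 h-only region of 9 (percentile 14.8) and none of 8 at 4 h, and its strongest region was at 88.6 at 16 h and 82.1 at 4 h. The IL-25 receptor gene Il17rb had 1 region, at both times, at 26.2 and 7.90. Il7r had 2 16 h-only regions of 9 and Il2ra had 1 of 11 in each list. The inhibitory receptor Klrg1 had 2 of 14, at most at percentile 38.9, and the costimulator Icos 3 of 15 at 16 h and 1 of 13 at 4 h. Among the effectors, no region at Il13 (6 and 6) or Il4 (3 and 3) was called once. Il5 had 1 of 5 at 16 h, and Areg, amphiregulin, had 2 4 h-only regions of 6, at percentile 16.7 and 2.78. Among the transcription factors, Gata3 had 2 of 12 at 16 h and 1 of 10 at 4 h, all below percentile 8, and its strongest region was at 77.1 and 79.5. Rora, which encodes RORα over a long gene, had 10 of 21 at 16 h and 1 of 12 at 4 h. The strongest of these 10 (chromosome 9, 69155900 to 69156298) was at percentile 43.3, while the strongest region of the gene, in both lists, was at 92.0 and 88.1. Pparg had 5 of 13 and 2 of 10. Bcl11b had none of 15 in either list.

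The E protein and Id genes bear on the vector and the transgene. Tcf3, which encodes E47, had 2 regions in each GFP list and none called once, the strongest at percentile 93.1 at 16 h and 95.0 at 4 h. Id1 had 2 16 h-only regions of 4, at percentiles 32.0 and 18.2, and a region at the gene end at 79.8 and 68.5. Esr1, the estrogen receptor that binds tamoxifen, had 1 16 h-only region of 6 and 2 4 h-only of 7. The related E protein genes Tcf4 and Tcf12 had 5 of 12 and 4 of 10 regions at 16 h only, and Id2 had 2 of 13. The whole list of 14 had 19 of 67 (28.4%; 18.01 to 40.7) at 16 h and 2 of 48 (4.17%; 0.509 to 14.3) at 4 h, and both intervals hold the share of all named regions.

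The 23 gene lists together had a lower 16 h-only share than other genes, and a 4 h-only share close to theirs. Their members had 583 of 2660 regions called at 16 h only (21.9%; 20.4 to 23.5) against 24.6% for other genes, and 175 of 2201 called at 4 h only (7.95%) against 7.85%. In 19 lists of 23 at 16 h, and in all 23 at 4 h, the interval held the share of all named regions. The 4 lists with a lower interval at 16 h were ILC2 identity, activation and AP-1 (46 of 255, 18.04%), cholesterol synthesis (16 of 107, 15.0%) and hypoxia and glycolysis (23 of 154, 14.9%). The median percentile of their 16 h regions was 48.6, 55.7, 62.0 and 60.3 in that order, against 50.4 over all named regions. The shares were not matched for strength. At equal length ILC2 identity, hypoxia and glycolysis (6 of 128, 4.69%) and innate lymphoid precursor regulators (14 of 206, 6.80%) were below 12.7%. With 23 lists and no test, these differences are a description.

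Members named next were picked for having most regions called at one time. Their counts are to be read beside 24.5% at 16 h and 7.86% at 4 h over all named regions. In the activation list Jun had 6 16 h-only regions of 16 and Nfatc1 6 of 20, with 3 of 17 at 4 h. In the hypoxia list Epas1, which encodes HIF-2α, had 3 of 16 and the glucose transporter gene Slc2a3 3 of 13. In the cholesterol list the efflux pump gene Abca1 had 5 of 18, and both regions of Nr1h3, the sterol receptor LXRα, were 16 h-only. The stronger Nr1h3 region (chromosome 2, 91194624 to 91194814) was at percentile 54.9 with fold 13.4, and was at 23.9 in E47 at 4 h and not called in E47 at 16 h. The circadian clock genes had 35 of 124 regions at 16 h only (28.2%; 20.5 to 37.0) and 5 of 90 at 4 h only (5.56%), with Rora, Arntl (6 of 13), Npas2 (5 of 10) and Nfil3 (4 of 9) leading. At equal length that list had 6 of 89 (6.74%; 2.51 to 14.1) at 16 h and 12.2% at 4 h, so the share above that of all named regions at 16 h was not there at equal length. The TGF-beta and Notch list had 57 of 207 at 16 h only (27.5%, interval 21.6 to 34.2), and at equal length 13.4% against 12.7%. In it Maml2, a Notch coactivator, had 10 of 23 at 16 h and 4 of 17 at 4 h. Tgfbr2, a TGF-beta receptor gene, had 7 of 21 and 3 of 17. The NF-kB list (37 of 164, 22.6%, interval 16.4 to 29.7) drew 14 of these regions from Nfkb1.

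Markers of other lymphoid and myeloid cells were looked at in the same way, beside the shares of 24.5% at 16 h and 7.86% at 4 h over all named regions. T cell genes had 15 of 64 regions at 16 h only (23.4%) and 4 of 54 at 4 h only (7.41%). Of 23 T cell genes 17 had a region named for them. Cd3g, Cd4, Cd8a, Cd8b1, Ptcra and Rag2 had none in either list, which means only that no summit was nearest to them. Both regions of Cd3e were 16 h-only, the stronger at percentile 28.5. B cell genes had 7 of 15 at 16 h only (46.7%, interval 21.3 to 73.4), spread over 6 genes, and 1 of 8 at 4 h only (12.5%). Of 12 B cell genes 6 had a region, and Cd79a and Ms4a1 were among those without. Mast cell genes had 10 of 29 at 16 h only (34.5%, interval 17.9 to 54.3) and 3 of 21 at 4 h only (14.3%). Of 11 mast cell genes 8 had a region, and Fcer1a and Ms4a2 had none. Both regions of the mast cell chymase gene Cma1 were 16 h-only, the stronger (chromosome 14, 55922342 to 55922848) at percentile 59.6, while the 1 region of the tryptase gene Tpsb2 was 4 h-only (percentile 10.3) and the carboxypeptidase gene Cpa3 had 0 of 2 at 16 h only and 1 of 4 at 4 h only. Myeloid genes had 16 of 57 at 16 h only (28.1%, interval 17.0 to 41.5) and 4 of 44 at 4 h only (9.09%). Of 18 myeloid genes 13 had a region, and Csf1r, Csf3r, Lyz2, Mpo and Elane had none. All of these intervals hold the share of all named regions. At equal length the 16 h-only share of B cell genes was 27.3% (3 of 11, interval 6.02 to 61.0). It was 20.8% for mast cell genes (5 of 24, 7.13 to 42.2) and 13.3% for myeloid genes (6 of 45, 5.05 to 26.8). Each of these intervals holds the 12.7% of all named regions. Whether other cells took part in the calls was not tested.

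**Figure D5:**
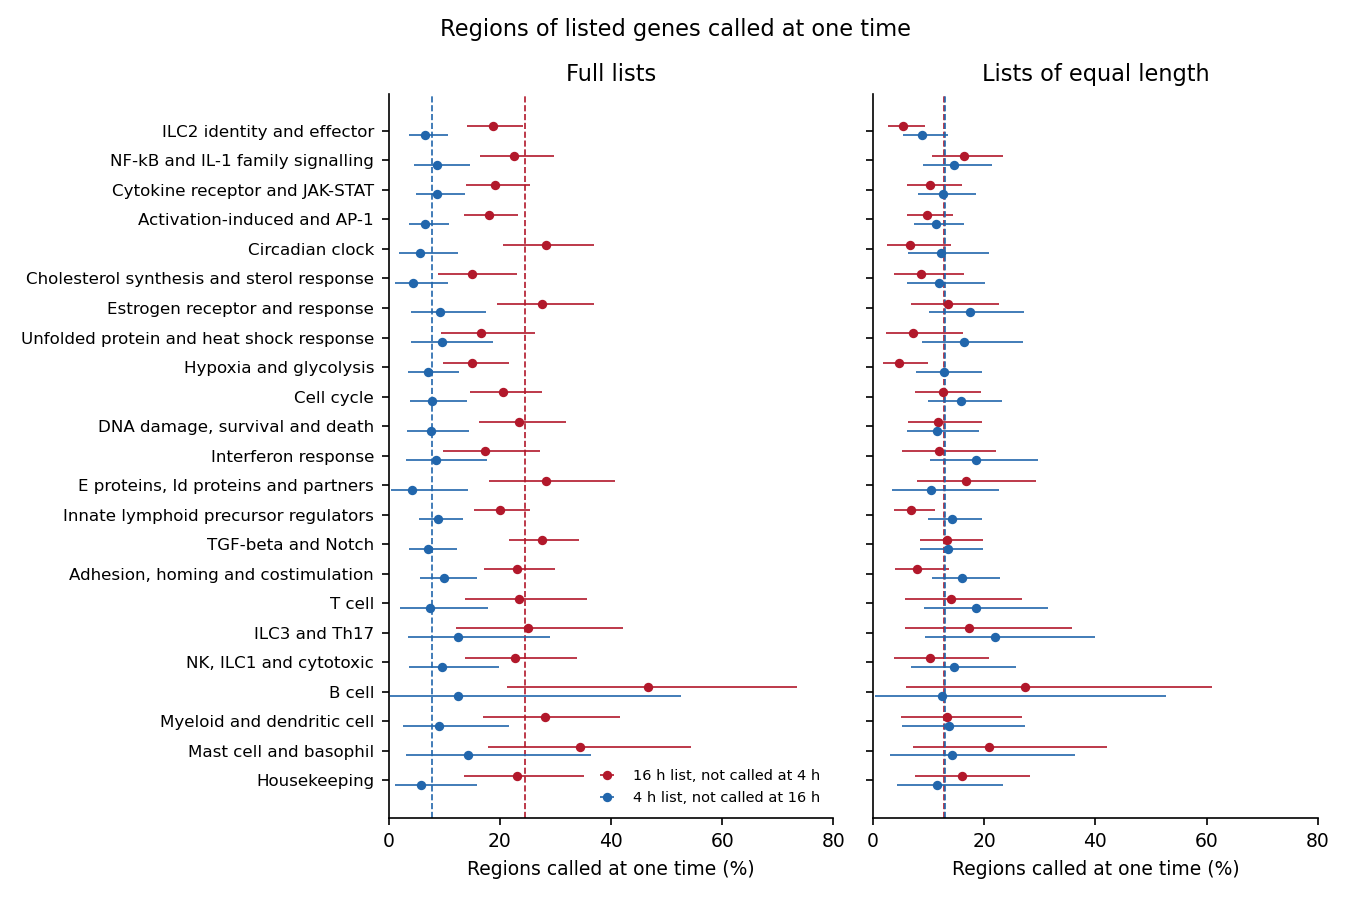
Share of regions (percent, x axis) named for the genes of 23 lists and called at 16 h only (red) or at 4 h only (blue), with 95% exact binomial intervals, for full lists on the left and lists of equal length on the right; dashed lines are the shares over all regions named for a gene (24.5% and 7.86%, then 12.7% and 13.0%). Most intervals cross their line, and the ILC2 list lies below it for 16 h-only regions on both sides.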

How the data were processed

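ATAC-seq of 8 samples reached the deposit as 1 peak list for each group, the conservative set of an irreproducible discovery rate analysis by its name, and no list holds values per sample. The submitters' processing notes name mm10 and the tools cutadapt, Bowtie2, MACS2 and DiffBind. Their versions, their settings and the number of reads behind each list were not given in the sources used here. In the track names, per the labels, reads were trimmed, duplicates and mitochondrial reads removed and tracks pooled. Per line, the deposited files give a score (at most 1000), a fold enrichment (ratio) and −log10 p, which grows with depth, so that values were only ranked within a list.

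Lines were merged, and regions compared by an overlap of 1 bp. A merged region took the highest −log10 p and the highest fold enrichment of its lines, and the summit of the line with the highest −log10 p. Equal lengths were made by leaving out the weakest regions. Genes, starts and promoters came from RefSeq tables of GRCm38.p6 (21900 protein-coding genes, of which 484 of 486 list genes were found). Python 3.11.15, pandas 2.3.3 and scipy 1.17.1 were used, with 95% Clopper-Pearson intervals. Merging, overlap and gaps were tested on 20000 simulated positions, and all 10 checks gave the known answers.

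Groups came from the sample titles. Promoters printed were the 4 under the strongest regions of each kind, and named genes were those of the 10 strongest regions of a kind, the 10 strongest in both vectors, the 5 strongest at gene ends, the 10 genes with most, up to 4 members per list, Tcf3, Esr1, Id1 and 12 ILC2 genes. Regions over 1 kb apart, those in no E47 list, Bcl11b, and marker genes with no region or with all regions of one kind were added after values were seen. The regions, lists and named-gene rule were chosen with earlier results of these data known. Alternatives are in the closing section. Exons and introns and region sequences were not used here. A few items that the naming rule gives are not reported here.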

Additional observations from a re-analysis of the deposited data

Results flagged for a closer look

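The excess of regions called at 16 h only over those called at 4 h only was 9660 in GFP cells and -9460 in E47 cells, so the sign of the change with time was opposite under the 2 vectors. The lists differed in length in the same sense, by 10181 regions in GFP and -9162 in E47 (16 h minus 4 h). With all 4 lists set to 40649 regions, the differences were -197 in GFP and -572 in E47. Each group had 1 list, and the difference between vectors was not tested.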

How the results depend on the processing

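Of 44 alternative values, 18 stayed within 1.5 times of a count or within the interval of a share and 26 did not. The 16 h-only count of 13081 became 5506 at equal length, 7509 at equal length by fold, 8017 among regions with the highest score, and 359 above the median percentile. The 4 h-only count of 3421 became 5640, 7282, 1152 and 16 under those settings, and 2230 over 1 kb from the other time, an alternative added after values were seen. The same setting left 9196 at 16 h. Another setting counted single summits and not merged regions, so its unit differs. By it 31376 summits at 16 h and 10460 at 4 h had none of the other time within 150 bp. The unmerged lists held 134423 and 112023 lines. At equal length the share of list genes' regions was 10.9% at 16 h and 13.9% at 4 h, and above the median 0.964% and 0.0954%. Regions called at 16 h in both vectors were 486 with 4 lists of equal length, and above the median 0, with 3 at 4 h, and over 1 kb from the other GFP list 474 at 16 h and 555 at 4 h. The share at gene ends at 16 h was 7.31% with a limit of 500 bp, 30.5% with 5 kb and 7.22% over 1 kb apart, and at 4 h 9.88%, 30.4% and 8.65%. An overlap of 50% gave 13180 and 3467, and autosomes alone 12749 and 3348. No replicate could be left out. Read depth and the agreement of replicates move the number of regions called, and their part in the list lengths was not tested. No paired analysis was possible because the deposited lists hold no columns of single samples.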
